A study of Homo sapiens with 4 samples.

Results

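The genes described here are those of the aminoacyl-tRNA synthetases, the enzymes that load amino acids onto transfer RNAs, and of their cofactors in Kasumi-1, an established human acute myeloid leukemia (AML) cell line derived from myeloblasts with a RUNX1-RUNX1T1 fusion. The members were chosen by name: 19 cytosolic enzymes, 16 mitochondrial enzymes and 3 cofactors of the cytosolic multisynthetase complex, 38 genes in all of the 18567 in the table. The list is not the full human family. All 38 were found and all 38 passed the filter of at least 1 TPM in at least 2 of the 4 samples, which 16817 genes passed, and their values lay between 3.13 and 316.6 TPM. TPM, a count scaled for transcript length and then to a fixed total per sample, allows levels to be compared between genes. RNA was sequenced from 2 control samples, called NC, and 2 samples with short hairpin RNA (shRNA) knockdown of ANP32B, a nuclear histone chaperone, called sh-ANP32B. By its labels NC carried no shRNA and had no treatment, but the experiments of the study used cells with a control hairpin (sh-NC) and puromycin-selected lentiviral lines, and the sources used here do not settle which of these NC was. The labels do not name the hairpin of either sh-ANP32B sample or say whether the replicates were separate cultures, so p-values measure only the spread between these samples.

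Synthetases join an amino acid to the matching transfer RNA at the cost of ATP, most of them serving a single amino acid, and the charged transfer RNA is then carried to the ribosome. The cytosol and the mitochondrion each have their own protein synthesis, and for most amino acids the enzyme of each compartment is made from a separate nuclear gene. Gene names give the amino acid by its letter code, with a closing 1 for the cytosolic and a closing 2 for the mitochondrial enzyme. GARS1 and KARS1 serve both compartments. Several cytosolic enzymes sit in the multisynthetase complex, which AIMP1, AIMP2 and EEF1E1 hold together. Many cytosolic synthetase genes are known targets of ATF4, the transcription factor of the amino acid response, and growth regulators such as MYC are known to act on genes of protein synthesis.

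The labels were checked on ANP32B itself, which had 383.8 and 392.0 TPM in NC against 51.8 and 41.2 TPM after knockdown, where it fell by 3.04 on the log2 scale (SE 0.150, limma adjusted p 0.00516). MYC, which the study followed, had 130.8 and 143.8 TPM in NC against 56.7 and 63.2 TPM after knockdown (log2 fold change -1.18, SE 0.137, limma adjusted p 0.0261). Of the Kasumi-1 markers, RUNX1 had between 120.5 and 142.6 TPM, ANPEP between 81.7 and 134.4, CD33 between 58.5 and 70.1, RUNX1T1 between 15.6 and 31.2 and KIT only between 1.55 and 3.41 TPM, and CD34 and MPO were not analysed here. Of 13 markers of T cells, B cells, erythroid, epithelial and fibroblast cells 1 had values, CD79A, which lay between 0 and 2.17 TPM. The others, like CD34 and MPO, were not analysed here, so they do not show whether such cells were absent. Depth is unknown, since TPM keeps none.

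Most synthetase genes were lower after knockdown, by small amounts. The log2 fold change (sh-ANP32B minus NC, on log2(TPM + 1)) was below 0 for 34 of the 38 members, against 42.1% of all genes tested, and its median was -0.28, against 0.08 over all genes. It ranged from -0.87 for LARS2 to 0.37 for HARS2. LARS2 alone passed the test across all genes at an adjusted p under 0.05, so that 1 member was called lower and 0 higher, where 1.18% of all genes were called lower, 2.14% higher and 3.32% in either direction. With the replicate number as a block 3 members were called lower, AIMP2, LARS2 and MARS2, where 2.92% of all genes were. No pairing of replicates is stated. The block leaves less to estimate the spread of each gene, so its error rests more on a variance shared across genes. Its calls are therefore not on a par with those of the main fit. Scaling by the median of ratios changed the split over all genes to 1.69% lower and 1.40% higher. At an unadjusted p under 0.05, 10 members were lower and 0 higher, where 8.72% of all genes were lower and 15.0% higher. The criterion of the study asks for a change of more than 0.5 on the log2 scale in addition to an unadjusted p under 0.05. The study applied it to DESeq2, whereas here it was applied to limma. Under it 8 members were lower and 0 higher, where 6.55% of all genes were lower and 12.1% higher. These 8 were the mitochondrial LARS2, MARS2, NARS2 and WARS2, the cytosolic IARS1 and LARS1, and the cofactors AIMP2 and EEF1E1. Both sh-ANP32B samples lay below both NC samples in 24 members, which holds for 21.4% of all genes, and above them in 1 member, which holds for 33.2%. In bulk RNA, a lower level per cell and a lower share of cells expressing a gene cannot be told apart.

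**Figure D1:**
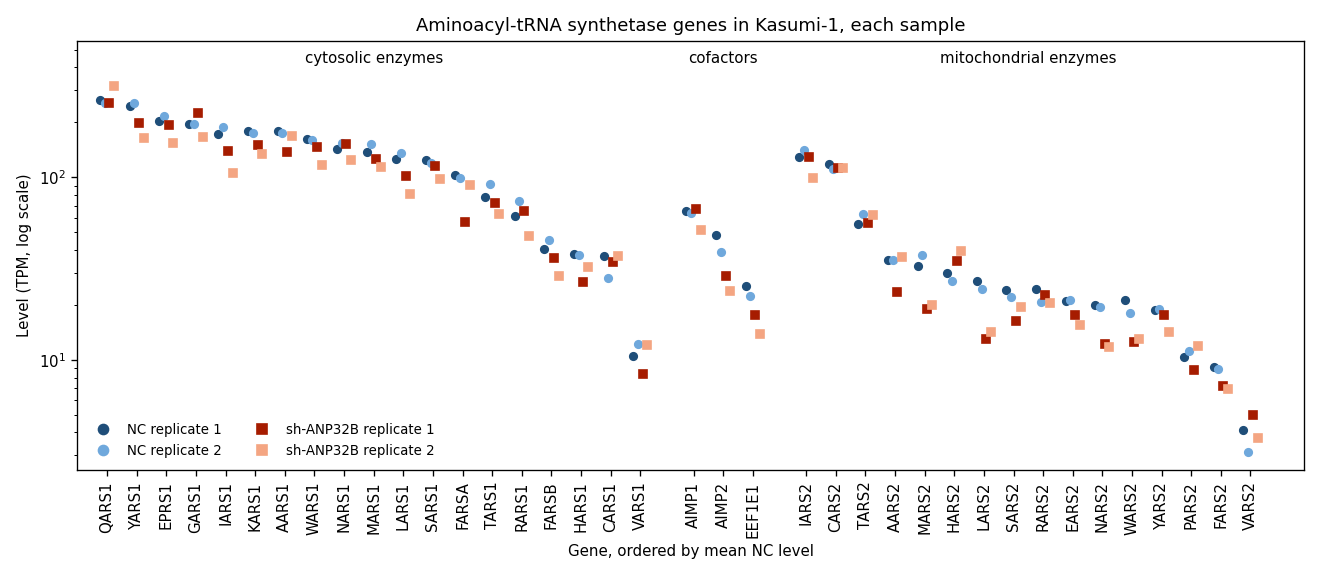
Level of each of the 38 genes in every sample in TPM on a log axis, with 1 point per sample (circles NC, squares sh-ANP32B) and genes ordered by mean NC level within each group. QARS1 was the highest cytosolic and VARS2 the lowest mitochondrial gene, and the 4 points of most genes lie close together beside the differences between genes.

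The mitochondrial enzymes held the members that were lowest against NC. LARS2 charges mitochondrial leucine transfer RNA (ENSG00000011376, chromosome 3 of hg38 from 45388561 to 45554726, plus strand). It had 26.9 and 24.5 TPM in NC against 13.1 and 14.2 TPM after knockdown. Both knockdown samples were near 52.9% of the NC mean and close to each other. It fell by 0.87 on the log2 scale, with an SE of 0.168 and a limma adjusted p of 0.0482. By limma it was also called in 10 of 12 alternative settings. This call sat at the threshold: the adjusted p was 0.0512 when no filter on low genes was used, 0.117 without the abundance trend, and 0.329 and 0.207 without NC replicate 1 and 2, while the fold change stayed between -0.94 and -0.805 in these 4 fits.

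Among the mitochondrial enzymes MARS2 and NARS2 followed LARS2 in size but did not pass the test. MARS2, the mitochondrial methionine enzyme (ENSG00000247626, chromosome 2 from 197705369 to 197708395, plus strand), had 32.5 and 37.4 TPM in NC against 19.1 and 20.0 TPM after knockdown (log2 fold change -0.80, SE 0.161, limma adjusted p 0.0515). With median-of-ratios scaling of the samples its adjusted p was 0.0443. Over 12 alternative settings its limma adjusted p lay between 0.00979 and 0.121. It stayed above 0.05 in 4 of them and was under it in the others. NARS2, the mitochondrial asparagine enzyme (chromosome 11 from 78435620 to 78575194, minus strand), had 20.0 and 19.4 TPM in NC against 12.2 and 11.7 TPM after knockdown (log2 fold change -0.68, SE 0.170, limma adjusted p 0.0771). In both genes the groups did not overlap and the knockdown samples were at 55.9% and 60.4% of the NC mean. WARS2, for mitochondrial tryptophan, had 21.2 and 18.0 TPM in NC against 12.6 and 13.0 TPM after knockdown (log2 fold change -0.58, SE 0.179, limma adjusted p 0.121).

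The other mitochondrial enzymes spread from somewhat lower to higher. SARS2 (-0.36), EARS2 (-0.33), FARS2 (-0.31), IARS2 (-0.26) and YARS2 (-0.24), for serine, glutamate, phenylalanine, isoleucine and tyrosine, had log2 fold changes below 0 with both sh-ANP32B samples below both NC samples, and limma adjusted p between 0.272 and 0.486. AARS2, for alanine, overlapped between the groups, with 35.3 and 35.0 TPM in NC against 23.5 and 36.5 TPM after knockdown (log2 fold change -0.25). PARS2 (-0.07), RARS2 (-0.06), CARS2 (-0.03) and TARS2 (-0.0019) had log2 fold changes near 0 and overlapping groups. TARS2, for threonine, had 55.4 and 62.9 TPM in NC against 56.2 and 61.8 TPM after knockdown. The 2 genes with a log2 fold change above 0 were VARS2, for valine, and HARS2, for histidine. VARS2 had the lowest level of the list, 4.15 and 3.13 TPM in NC against 4.97 and 3.73 TPM after knockdown (log2 fold change 0.20, limma adjusted p 0.700), with overlapping groups. HARS2 (chromosome 5 from 140691430 to 140699305, plus strand) had 29.9 and 27.1 TPM in NC against 35.0 and 39.3 TPM after knockdown (log2 fold change 0.37, SE 0.156, limma adjusted p 0.215). It was the only member with both sh-ANP32B samples above both NC samples.

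**Figure D2:**
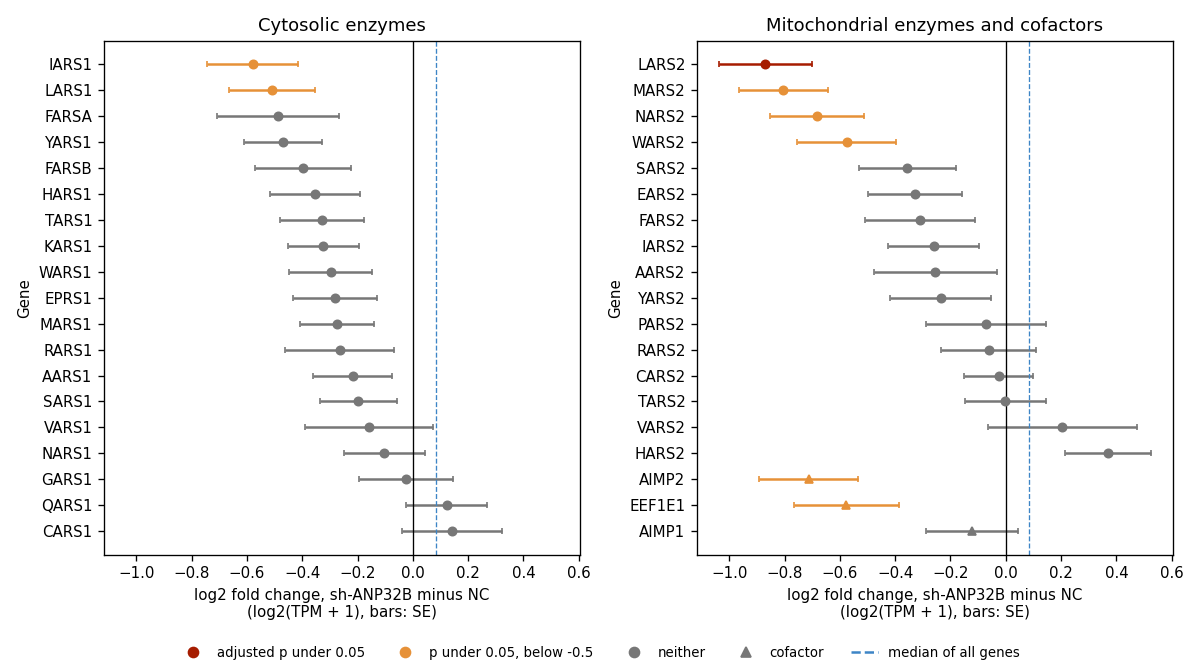
Log2 fold change of each gene, sh-ANP32B minus NC on log2(TPM + 1), with bars of 1 SE from the limma fit on 2 samples per group, cytosolic enzymes on the left and mitochondrial enzymes and cofactors (triangles) on the right. Red marks LARS2, the only gene with an adjusted p under 0.05. Orange marks the 7 others that met the criterion of the study, applied here to limma. Of the 38 genes 34 lie below 0, and the dashed line marks the median of all genes at 0.08.

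None of the 19 cytosolic enzymes passed the test, with a median log2 fold change of -0.28 and 17 of them below 0. Against 0 calls at an adjusted p, 4 had an unadjusted p under 0.05 by limma, all of them lower, against the 8.72% of all genes: IARS1, LARS1, YARS1 and KARS1. IARS1, the isoleucine enzyme (ENSG00000196305, chromosome 9 from 92210207 to 92293854, minus strand), had 173.3 and 189.4 TPM in NC against 138.8 and 105.4 TPM after knockdown (log2 fold change -0.58, SE 0.165, limma adjusted p 0.102). LARS1, the leucine enzyme, which also senses leucine for the mTORC1 growth pathway (chromosome 5 from 146110566 to 146182696, minus strand), had 125.2 and 134.9 TPM in NC against 102.0 and 81.2 TPM after knockdown (log2 fold change -0.51, SE 0.155, limma adjusted p 0.116). In both genes the groups did not overlap, and the sh-ANP32B replicates differed from each other more than the NC replicates did. YARS1, for tyrosine, was at 72.4% of the NC mean (log2 fold change -0.47, limma adjusted p 0.115) and KARS1, for lysine, at 79.9% (-0.32, limma adjusted p 0.192).

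The complex enzymes and the free enzymes of the cytosol had similar values. Among the 7 enzymes of the multisynthetase complex listed, EPRS1, IARS1, KARS1, LARS1, MARS1, QARS1 and RARS1, the median log2 fold change was -0.28, and among the 12 others it was -0.26. EPRS1, which charges both glutamate and proline, stood at a log2 fold change of -0.28, MARS1 of -0.28 and RARS1 of -0.26, with limma adjusted p between 0.268 and 0.461. QARS1, for glutamine, was the most abundant member. It had 265.8 and 254.4 TPM in NC against 253.5 and 316.6 TPM after knockdown (log2 fold change 0.12, limma adjusted p 0.665), so that 1 knockdown sample lay below both NC samples and the other above. The enzymes of class I and class II, which have unrelated catalytic folds, had medians of -0.27 and -0.28.

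Outside the complex, FARSA and FARSB encode the paired subunits of the phenylalanine enzyme. FARSA (chromosome 19 from 12922479 to 12934037, minus strand) had 103.4 and 99.5 TPM in NC against 57.1 and 90.9 TPM after knockdown (log2 fold change -0.49, SE 0.221, limma adjusted p 0.242). FARSB had 40.4 and 45.2 TPM in NC against 36.3 and 28.7 TPM after knockdown (log2 fold change -0.40, SE 0.174, limma adjusted p 0.227). Both subunits had non-overlapping groups, but FARSA was lowest in sh-ANP32B replicate 1 and FARSB in replicate 2. HARS1 (-0.35), TARS1 (-0.33), WARS1 (-0.30), AARS1 (-0.22) and SARS1 (-0.20), for histidine, threonine, tryptophan, alanine and serine, also had log2 fold changes below 0 without overlap. VARS1 (-0.16) and NARS1 (-0.10), for valine and asparagine, overlapped between the groups.

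At the upper end of the cytosolic list stood CARS1, QARS1 and GARS1. CARS1, for cysteine, had 37.1 and 28.1 TPM in NC against 34.3 and 37.1 TPM after knockdown (log2 fold change 0.14, limma adjusted p 0.691). GARS1, for glycine, had 196.0 and 195.7 TPM in NC against 224.9 and 165.1 TPM after knockdown (log2 fold change -0.02, limma adjusted p 0.955). Its knockdown samples lay on either side of an almost constant NC level.

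The cofactors of the complex differed among themselves. AIMP2, a scaffold to which many of the complex enzymes bind (ENSG00000106305, chromosome 7 from 6009255 to 6023834, plus strand), had 48.5 and 39.2 TPM in NC against 28.6 and 24.0 TPM after knockdown (log2 fold change -0.71, SE 0.179, limma adjusted p 0.0789). EEF1E1, also known as AIMP3 (chromosome 6 from 8073360 to 8102559, minus strand), had 25.2 and 22.3 TPM in NC against 17.6 and 13.8 TPM after knockdown (log2 fold change -0.58, SE 0.190, limma adjusted p 0.135). Both were lower in each sh-ANP32B sample than in either NC sample, at 59.99% and 66.0% of the NC mean, and both missed the threshold. AIMP1, which is also secreted as a cytokine precursor, had 65.0 and 63.5 TPM in NC against 67.4 and 51.6 TPM after knockdown (log2 fold change -0.12, SE 0.167, limma adjusted p 0.714), with overlapping groups. A readthrough locus, EEF1E1-BLOC1S5, spans EEF1E1 on the same strand, and AIMP2 shares 1588 bases with EIF2AK1 on the opposite strand. Whether the counting used strand was not stated, so such values are uncertain. So are those of 21 members that overlap a certain kind of gene on the opposite strand, among them LARS2, NARS2 and WARS2. Only genes with deposited values or named after the member were counted. The remaining members may overlap other annotated genes. A pseudogene named after the member is annotated for 13 members, EEF1E1 and WARS2 among them, and none of these copies has deposited values. How reads that match both a gene and its copy were counted was not stated, so these values are uncertain too.

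Cytosolic and mitochondrial enzymes were contrasted within each sample, which does not depend on the scaling between samples. The median level of the cytosolic enzymes was 137.9 and 151.7 TPM in NC against 125.9 and 105.4 TPM after knockdown. That of the mitochondrial enzymes was 24.2 and 21.7 TPM in NC against 17.7 and 17.5 TPM after knockdown. The difference of the median log2(TPM + 1) was 2.46 and 2.75 in NC and 2.76 and 2.54 in sh-ANP32B, so the samples of the groups interleaved. The summed TPM of the cytosolic enzymes was 4.31 and 4.41 times that of the mitochondrial enzymes in NC and 4.41 and 4.10 times in sh-ANP32B. The sums in sh-ANP32B were at 84.6% of NC for the cytosolic and 86.6% for the mitochondrial enzymes, and at 76.96% for the cofactors. No difference between the compartments as a whole was seen beyond the spread of the replicates, and the median log2 fold changes were -0.28 and -0.26.

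Enzyme by enzyme, the ratios between the compartments differed between the groups in either direction or overlapped. Of 17 pairs for the same amino acid, the cytosolic gene was the higher in all 4 samples in 15. The exceptions were CARS1 against CARS2, where the mitochondrial gene was higher throughout, and HARS1 against HARS2. The ratio of cytosolic to mitochondrial TPM was higher in both sh-ANP32B samples than in both NC samples for 4 pairs, lower for 4 and overlapping for 9. No test was made of these ratios. With 2 samples a group, samples that vary alike separate in one direction or the other with a probability of 0.333. The counts alone therefore do not show a change. EPRS1 and FARS2 each enter more than a single pair, so the pairs are not independent.

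The 4 pairs with a higher ratio were those of leucine, methionine, asparagine and tryptophan. For NARS1 against NARS2 it was 7.17 and 7.90 in NC and 12.6 and 10.7 in sh-ANP32B. For MARS1 against MARS2 it was 4.25 and 4.06 in NC and 6.59 and 5.66 in sh-ANP32B. LARS1 against LARS2 moved less, from 4.65 and 5.50 to 7.80 and 5.73, since LARS1 was also lower, and the values of WARS1 against WARS2 nearly touched, at 8.87 in NC replicate 2 and 8.98 in sh-ANP32B replicate 2. The 4 pairs with a lower ratio were those of histidine, isoleucine, threonine and tyrosine. The ratio of HARS1 to HARS2 was 1.26 and 1.39 in NC and 0.760 and 0.821 in sh-ANP32B, so that the mitochondrial gene became the higher of the pair. That of IARS1 to IARS2 was 1.34 in both NC samples and 1.07 in both sh-ANP32B samples.

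**Figure D3:**
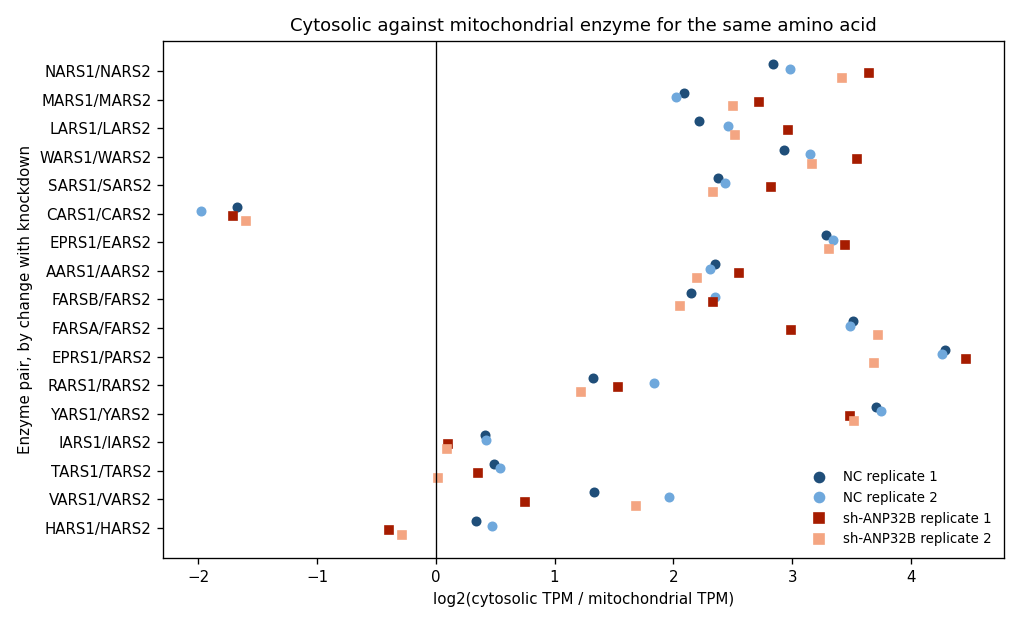
Log2 ratio of cytosolic to mitochondrial TPM for enzymes of the same amino acid in each sample (circles NC, squares sh-ANP32B), ordered by the change with knockdown. The ratio of the HARS1 and HARS2 pair crosses 0, from 0.34 and 0.47 in NC to -0.40 and -0.29 in sh-ANP32B, and 9 of the 17 listed pairs overlap between the groups.

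HARS1 and HARS2 lie head to head on chromosome 5, and the deposited values of the pair may share reads, because their annotated bodies overlap by 108 bases on opposite strands. Each may also share reads with other neighbours. HARS2 overlaps ZMAT2 by 626 bases on the same strand. HARS1 overlaps DND1 by 542 bases on the same strand and WDR55 by 1090 bases on the opposite strand. HARS1 had 37.8 and 37.6 TPM in NC against 26.6 and 32.3 TPM after knockdown, and HARS2 ran the other way. In RefSeq (GRCh38.p14) the start sites lie 85 bases apart, and the promoter windows used here, 250 bases before to 50 bases after each start, share 184 bases. The window of HARS2 (chr5:140691205-140691504, plus strand) is shown because a single stretch serves both genes, with the shared bases in capitals:
HARS2: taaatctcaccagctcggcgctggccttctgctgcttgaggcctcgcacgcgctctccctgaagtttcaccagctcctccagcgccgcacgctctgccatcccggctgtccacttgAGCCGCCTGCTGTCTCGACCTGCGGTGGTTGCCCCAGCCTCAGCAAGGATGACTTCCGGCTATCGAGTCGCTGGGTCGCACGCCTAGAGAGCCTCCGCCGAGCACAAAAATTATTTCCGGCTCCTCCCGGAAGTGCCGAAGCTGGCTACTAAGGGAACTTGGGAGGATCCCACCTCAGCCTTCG

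TARS3, a second cytosolic threonine enzyme, stood outside the list and was looked up after the values of the members were known. It had 4.25 and 4.68 TPM in NC against 10.8 and 9.14 TPM after knockdown (log2 fold change 1.00, SE 0.218, limma adjusted p 0.0592). TARS3 thus missed the 0.05 threshold, and it also missed it in 8 of the 12 alternatives. In these limma gave adjusted p between 0.0605 (pseudocount of 0.1) and 0.114 (no abundance trend). Among these 12, only the remaining alternatives brought it under 0.05, and fits with 1 replicate left out are not counted here. The alternatives under 0.05 were the replicate block (0.0217), GC correction (0.0161), both together (0.0323) and 1 TPM required in all samples (0.046). Leaving out 1 replicate at a time kept the log2 fold change between 0.893 and 1.109. Both knockdown samples lay above both NC samples, whereas in TARS1, for the same amino acid, both lay below.

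In the knockdown group, the difference between the replicates varied with the base composition of the genes. Of the 38 members 29 differed less between the NC replicates than between the sh-ANP32B replicates. Of the 18 members whose longest transcript had a GC content over 50%, 11 were higher in sh-ANP32B replicate 2 than in replicate 1, and of the other 20 members 16 were lower. Across the 38 members the Spearman rho of GC content with the difference of the sh-ANP32B replicates was 0.627, against -0.139 for the NC replicates, and across 15427 genes it was 0.577 and -0.206. These are descriptions of the libraries, since genes of a library share its preparation and are no replicates. FARSA and AARS2, rich in GC, and GARS1 and RARS1, poor in GC, were among the members with the widest differences, while LARS2, MARS2 and NARS2 differed little between the sh-ANP32B replicates. After a correction of each sample for GC content, added to the same test, 13 members had an adjusted p under 0.05, all of them lower, where 8.90% of all genes were called lower: FARSA, FARSB, HARS1, IARS1, KARS1, LARS1, YARS1, AIMP2, EEF1E1, LARS2, MARS2, NARS2 and SARS2. In that fit 36 of the 38 members had a log2 fold change below 0, against 50.8% of all genes. The part of GC content in the uncorrected values was not otherwise tested.

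**Figure D4:**
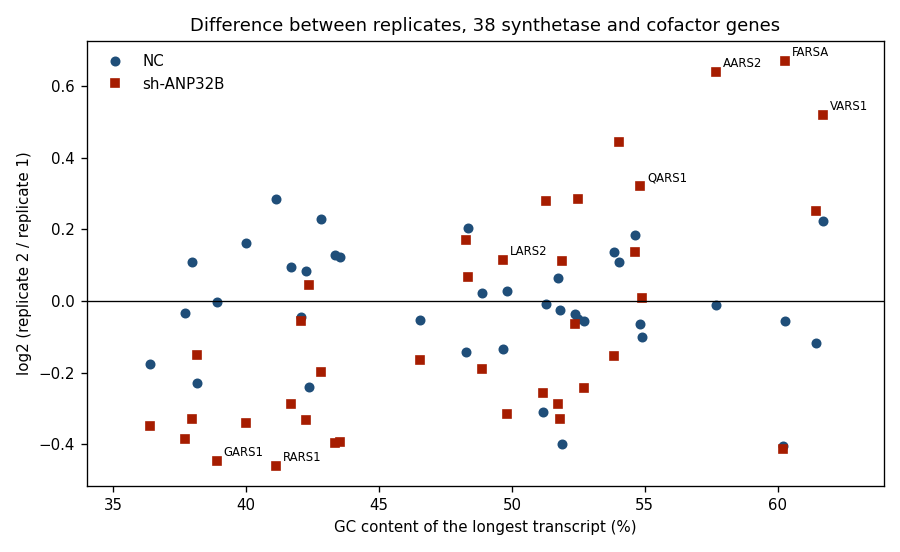
Log2 difference between replicate 2 and replicate 1 (y axis) against the GC content of the longest transcript in percent (x axis) for the 38 genes, circles for NC and squares for sh-ANP32B. The sh-ANP32B differences are mostly negative at low GC and more often positive at high GC (Spearman rho 0.627), with VARS2 as an exception, and the rho of NC is -0.139.

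The promoter windows of 33 members were searched on both strands for CACGTG, the E-box that MYC and its relatives bind, and for TGATGNAA, the core of the amino acid response element that ATF4 binds with its partners. A palindrome such as CACGTG reads alike on both strands, and the letter patterns do not overlap each other in these windows. CACGTG was found for 5 of the 33 members, AIMP2, CARS2, EARS2, IARS1 and MARS2, a share of 15.2% against 13.0% of the 9959 tested genes with a window and 8.77% of all 27305 genes with one. The median log2 fold change of these 5 was -0.58, and that of the others -0.27. They ran from MARS2 at -0.80 to CARS2 at -0.03. TGATGNAA was found for 8 of the 33, AARS1, CARS1, GARS1, IARS1, MARS1, NARS1, TARS1 and YARS2, a share of 24.2% against 2.57% of the tested genes and 4.46% of all. Of these 8, 7 were cytosolic enzymes, out of 16 with a window. Their log2 fold changes ran from -0.58 for IARS1 to 0.14 for CARS1 with a median of -0.23, against -0.31 for members without the motif. A member with several starts was counted if any of its windows held the motif. AIMP2 and CARS2 also have a window without CACGTG, and CARS1, GARS1 and TARS1 a window without TGATGNAA. A match is a description of letters and not a binding site.

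The windows of LARS2 (chr3:45388326-45388625, plus strand), MARS2 (chr2:197705119-197705418, plus strand), AIMP2 at its second start (chr7:6009315-6009614, plus strand) and IARS1 (chr9:92293648-92293947, minus strand) are shown because these genes had the lowest fold changes among the mitochondrial enzymes, the cofactors and the cytosolic enzymes, and that of GARS1 at its second start (chr7:30594628-30594927, plus strand) because its level was almost the same in both groups. All are RefSeq sequence of GRCh38.p14 on the strand of the gene, and capitals mark both motifs, TGATGNAA as its reverse complement. LARS2 holds neither, and MARS2 holds CACGTG beginning 11 bases before the start. AIMP2 holds it 75 bases before its second start, in a stretch that lies after its first start. IARS1 holds both, and GARS1 holds TGATGNAA beginning 33 bases before its second start:
LARS2: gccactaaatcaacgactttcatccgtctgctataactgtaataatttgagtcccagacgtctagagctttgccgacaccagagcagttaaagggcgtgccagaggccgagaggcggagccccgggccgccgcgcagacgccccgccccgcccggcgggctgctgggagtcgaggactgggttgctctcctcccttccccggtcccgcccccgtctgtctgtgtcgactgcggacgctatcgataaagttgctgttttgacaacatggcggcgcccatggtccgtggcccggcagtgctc
MARS2: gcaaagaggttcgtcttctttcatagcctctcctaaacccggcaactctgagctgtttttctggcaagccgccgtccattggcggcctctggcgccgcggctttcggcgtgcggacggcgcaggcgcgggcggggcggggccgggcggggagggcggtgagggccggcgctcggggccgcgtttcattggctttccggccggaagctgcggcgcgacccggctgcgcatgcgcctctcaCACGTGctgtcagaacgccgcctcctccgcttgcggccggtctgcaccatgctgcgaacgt
AIMP2: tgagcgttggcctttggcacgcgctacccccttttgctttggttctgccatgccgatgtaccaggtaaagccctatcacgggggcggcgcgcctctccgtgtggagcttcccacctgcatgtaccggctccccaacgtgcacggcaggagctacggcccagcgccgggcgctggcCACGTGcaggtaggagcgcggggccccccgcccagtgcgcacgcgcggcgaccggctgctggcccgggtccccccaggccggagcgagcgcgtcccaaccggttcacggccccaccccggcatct
IARS1: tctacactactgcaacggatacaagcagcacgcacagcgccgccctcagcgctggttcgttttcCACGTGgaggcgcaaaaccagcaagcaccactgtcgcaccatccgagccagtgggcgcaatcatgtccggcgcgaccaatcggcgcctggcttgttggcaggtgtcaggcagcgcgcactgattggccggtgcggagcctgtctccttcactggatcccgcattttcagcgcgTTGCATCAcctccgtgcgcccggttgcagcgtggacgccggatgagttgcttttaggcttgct
GARS1: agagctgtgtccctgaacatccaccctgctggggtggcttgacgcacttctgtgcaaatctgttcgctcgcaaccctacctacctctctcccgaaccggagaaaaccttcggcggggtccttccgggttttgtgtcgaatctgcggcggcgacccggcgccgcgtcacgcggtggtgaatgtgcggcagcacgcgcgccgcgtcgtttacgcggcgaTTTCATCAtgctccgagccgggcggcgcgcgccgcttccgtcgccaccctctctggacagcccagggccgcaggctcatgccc

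The partners of the synthetases were read from lists of the same pathways. All 8 genes of the list for mitochondrial charging and elongation had log2 fold changes below 0. This held for 42.1% of all genes. The median of the 8 was -0.42, and 1 passed the test as lower, where 1.18% of all genes did. This was TUFM, the mitochondrial elongation factor that delivers charged transfer RNA, with 228.8 and 230.6 TPM in NC against 136.6 and 151.2 TPM after knockdown (log2 fold change -0.67, SE 0.125, limma adjusted p 0.0454). GATB, a subunit of the enzyme that makes glutamine on mitochondrial transfer RNA, stood at -0.62 on the log2 scale (limma adjusted p 0.0921). Of 6 cytosolic elongation genes none passed, and the median was -0.10. By limma 1 was lower at an unadjusted p under 0.05, where 8.72% of all genes were. That gene was EIF5A, a factor that relieves stalled ribosomes (-0.52, limma adjusted p 0.0845). EEF1A1, which brings charged transfer RNA to the cytosolic ribosome, had a log2 fold change of 0.02, and its many copies in the genome make its value uncertain. Of 5 genes of proofreading and selenocysteine charging none passed. DTD2, which removes misloaded amino acids, was the only one with an unadjusted p under 0.05 in limma (-0.66, limma adjusted p 0.101). At that threshold 8.72% of all genes were lower.

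The amino acid response genes lay on both sides of 0. Of 22 genes listed 20 were tested, with a median log2 fold change of -0.18. Of these, 14 were below 0 and 6 above, against 42.1% of all genes below 0. By limma at an adjusted p under 0.05, 3 were called lower and 0 higher, where 1.18% and 2.14% of all genes were. The 3 were PSAT1 (-0.81) and PHGDH (-0.72), enzymes of serine synthesis, and SLC7A5 (-0.84), which imports leucine and other large amino acids, with limma adjusted p between 0.0399 and 0.0454. ATF4 itself had 343.0 and 368.0 TPM in NC against 255.3 and 307.5 TPM after knockdown (log2 fold change -0.34, limma adjusted p 0.203). ATF5 stood at -0.64 on the log2 scale (limma adjusted p 0.0514). The 6 genes above 0 were ASNS (0.43), ATF3 (0.56), DDIT4 (0.58), CEBPB (0.66), SLC7A11 (0.46) and VLDLR (0.32). Their limma adjusted p lay between 0.119 and 0.345. Of 6 genes that sense amino acid shortage or reset the response none passed by limma. At an unadjusted p under 0.05 in limma PPP1R15A (0.66) was higher and PPP1R15B (-0.53) lower. Of all genes 15.0% were higher and 8.72% lower at that threshold.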

How the data were processed

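Samples were grouped by their titles into NC and sh-ANP32B, with 2 samples each, and every column was matched to a sample by name. Per the labels, libraries were made with the Illumina TruSeq RNA kit and reads were aligned to hg38 with HISAT2 2.0.5. The table deposited by the authors holds TPM, as judged from decimals that sum to between 997812 and 998314 in each column; the program, annotation and filter behind it are not given in the sources used here. TPM keeps no depth, so no counting interval was computed, and a change in abundant transcripts moves every other value. The share of transcripts of the mitochondrial genome was 12.95% and 13.1% in NC and 11.4% and 8.43% in sh-ANP32B.

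Symbols, positions and GC content came from GENCODE v44, in which 16986 of 18567 IDs were found. Genes that reached 1 TPM in 2 or more samples were fitted with limma 3.58.1 in R 4.3.3 on log2(TPM + 1), with the prior variance following abundance, two-sided, with Benjamini-Hochberg adjustment over all 16817 genes. Fold changes on this scale understate low genes. The count-based test of the study was left out, since TPM are not counts. A two-sided exact permutation test with 2 samples a group has 0.333 as its smallest p, so none was made. The fit was tested on simulated data.

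The members and lists were chosen with earlier results of these data known, and some genes are not reported here. Every member was to be accounted for, with sample values for members at an adjusted p under 0.05, the 3 lowest and 3 highest fold changes among cytosolic and among mitochondrial enzymes, and the cofactors. Members beyond that rule, and TARS3, were given sample values after they had been seen. Alternatives were other scalings, filters, a pseudocount of 0.1, GC correction by loess, the replicate block and other variance models. Fits leaving out each replicate were made apart from these. Promoter windows were RefSeq sequence. Python 3.11.15, pandas 2.3.3, numpy 2.4.6 and matplotlib 3.10.9 were used.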

Additional observations from a re-analysis of the deposited data

How the results depend on the processing

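The median log2 fold changes kept their sign in 12 alternatives: between -0.37 and -0.28 for the cytosolic enzymes, between -0.35 and -0.26 for the mitochondrial enzymes and between -0.66 and -0.58 for the cofactors. That of the mitochondrial enzymes moved by more than the spread of the replicates, from -0.26 to -0.35, with median-of-ratios scaling, with GC correction, and with the replicate block and GC correction together. The scalings moved the median of all genes from 0.08 to between -0.01 and 0.04. The difference between the compartments lay between -0.02 and -0.01 in these alternatives, and between -0.06 and 0.03 with 1 replicate left out.

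The number of members called lower depended most on the setting. It was 1 as reported, where 1.18% of all genes were called lower. It was 2 with median-of-ratios scaling (1.69% of all genes), upper-quartile scaling (1.35%), quantile normalization (1.39%), mitochondrial-genome genes left out (1.39%) or 1 TPM required in all samples (2.06%). It was 0 with no filter (1.02%) or without the abundance trend (0%), and 13 with GC correction (8.90%). No replicate pairing is stated, and samples of the same number did not vary alike (Pearson r -0.0925, across genes). This r cannot settle whether they were paired, since the replicate differences also varied with GC content. They did so in opposite directions (Spearman rho 0.577 in sh-ANP32B and -0.206 in NC). With the replicate block the number was 3 (AIMP2, LARS2 and MARS2, where 2.92% of all genes were called lower), and with the block and GC correction 10 (6.55%). The block changed no call of ANP32B or MYC. Without the abundance trend ANP32B and MYC stayed at -3.04 and -1.18 with adjusted p of 0.0929 and 0.114, and 0 genes were called in all. The number under the criterion of the study, 8, was between 8 and 11 in the 12 alternatives, where between 6.09% and 9.58% of all genes met it.

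With 1 replicate left out, the lone sample was assumed to vary like the other group. The number called lower then lay between 0 and 18 (0 without NC replicate 1 or without NC replicate 2, where 0.476% and 0.351% of all genes were called lower, 18 without sh-ANP32B replicate 1, where 9.68% of all genes were called lower, and 12 without replicate 2, where 8.47% were), and the number called higher between 0 and 2 (2 without sh-ANP32B replicate 1, where 14.6% of all genes were called higher). The number under the criterion of the study lay between 3 and 10, where between 3.54% and 8.79% of all genes met it. Leaving out a knockdown replicate removes the wider spread of that group from the error.

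Directions near 0 were not stable. With GC correction QARS1 was -0.0145 and VARS2 -0.0066, also with the block. Over the fits that leave out 1 replicate, CARS1 lay between -0.0524 and 0.33, GARS1 between -0.25 and 0.20, NARS1 between -0.25 and 0.039, QARS1 between -0.0367 and 0.28, VARS1 between -0.39 and 0.0769, AIMP1 between -0.31 and 0.0672, AARS2 between -0.56 and 0.0536, CARS2 between -0.0749 and 0.0239, PARS2 between -0.27 and 0.13, RARS2 between -0.17 and 0.0481 and TARS2 between -0.092 and 0.0881. The cause of these shifts was not tested.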
